A study of Mus musculus with 8 samples.

Results

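The genes described here are 34 genes of mitosis whose products build the kinetochore, run the spindle checkpoint, form and move the spindle, and divide the cell. They were listed by name, and all 34 were found among the 55487 named rows of the table and passed the filter on low counts. All are annotated as protein coding, they lie on 14 chromosomes, and their smallest count in any library was 85. RNA was sequenced from ileal crypt cells of C57BL/6 mice that received CPT-11 (irinotecan, a prodrug whose product traps topoisomerase I on DNA) for 7 days at 20 mg/kg, or vehicle, with 4 libraries in each group. Crypts, the epithelial pockets that hold the dividing cells of the gut lining, were released with 20 mM EDTA, passed through a 70 μm strainer and dissociated with trypsin. The labels name no genotype other than the strain and no sort of the cells. Separate mice for the libraries are not stated either, so every p-value measures the spread between these libraries, which may be technical.

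In mitosis the kinetochore, a protein assembly on the centromere, captures spindle microtubules, and the checkpoint holds back anaphase until each chromosome is attached. The anaphase-promoting complex then marks securin and cyclin B for destruction, the chromatids part, and a midzone of bundled microtubules places the cleavage furrow. In the small intestine this activity belongs to the stem and transit-amplifying cells of the crypt. Many of these genes are transcribed mainly in G2 and M, through a short promoter element called CHR that binds the MuvB complexes, often with CCAAT boxes upstream that bind NF-Y.

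The letters of those 2 elements were looked up in RefSeq promoters (GRCm38.p6, 250 bases before to 50 after the start of transcription), because they are known from promoters of this class of gene. The table held 29 of the 34 members, and Aurkb, Incenp, Spc24, Ska1 and Tpx2 were without an entry. The CHR search took TTTGAA, its reverse complement TTCAAA, and TTCGAA, and the CCAAT search took CCAAT and ATTGG. A CHR match began within 50 bases of the start in 20 of the 29 members (69%), in 464 of 10475 tested genes with a promoter (4.43%) and in 1653 of all 27025 genes (6.12%). CCAAT letters lay within 150 bases before the start in 22 of 29 members (75.9%) and in 32.0% of tested genes. Both stood together in 18 of 29 members (62.1%) and in 1.57% of tested genes. Birc5, Mad2l1, Nuf2, Nusap1 and Tacc3 had neither set of letters anywhere in the 300 bases. The matches are descriptions of letters and not binding sites.

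The following stretches surround the CHR letters, in capitals, 5′ to 3′ on the gene's own strand. They are shown because genes that fell (the first 6), genes that did not pass the test (the next 3) and the gene that rose (the last) all carry them.
Plk1 (chr7:122159455-122159480, plus strand): cagcgccgcgTTTGAAttcggggagg
Aurka (chr2:172370523-172370548, minus strand): aaggagaaccTTTGAAttgtaacggc
Bub1b (chr2:118598241-118598260, plus strand): agacgttaaaTTTGAAactt
Hmmr (chr11:40733414-40733439, minus strand): ttgaggtaaaTTTGAAttcaggcgag
Prc1 (chr7:80294436-80294461, plus strand): tctggctcggTTTGAAttccgcgggg
Racgap1 (chr15:99651636-99651661, minus strand): ggtgcgtgatTTTGAAccggatctgg
Cdc20 (chr4:118437346-118437371, minus strand): acagttgggtTTTGAAggagccaatg
Cenpa (chr5:30666892-30666917, plus strand): cgggtgatttTTTGAActgctggcga
Cks1b (chr3:89418293-89418318, minus strand): gggcggtgtgTTTGAAagcgaggcca
Psrc1 (chr3:108383798-108383823, plus strand): gcctaagaaaTTCGAAcgaagctccg

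Examples of CCAAT and CHR letters together, both in capitals, are shown from the 200 bases before the start of Ckap2l and Mki67. Both genes had among the largest decreases, but not every member with a large decrease had both sets of letters.
Ckap2l (chr2:129297213-129297412, minus strand): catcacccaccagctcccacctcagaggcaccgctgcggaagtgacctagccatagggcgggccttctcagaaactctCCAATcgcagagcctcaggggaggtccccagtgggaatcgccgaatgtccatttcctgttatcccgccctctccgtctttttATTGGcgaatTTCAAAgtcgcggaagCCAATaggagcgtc
Mki67 (chr7:135716380-135716579, minus strand): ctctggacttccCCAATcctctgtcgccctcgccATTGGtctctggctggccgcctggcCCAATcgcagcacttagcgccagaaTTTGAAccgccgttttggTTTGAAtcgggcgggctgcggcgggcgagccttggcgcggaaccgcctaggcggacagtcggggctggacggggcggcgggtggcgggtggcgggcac
In Ckap2l a CHR match began 30 bases before the start, between ATTGG and CCAAT. In Mki67 a pair of TTTGAA matches lay farther up, 116 and 98 bases before the start, downstream of 3 CCAAT-type matches. Both TTTGAA matches of Mki67 were outside the 50 bases used for the count near the start. Anln, with the largest decrease among the members in the main fit, had CHR letters but no CCAAT letters. Nusap1, with a decrease close to that of Mki67, had neither. Whether the arrangement goes with the size of the decrease was not tested. CHR letters near the start were present in 8 of 11 members that fell and in 11 of 17 that did not pass the test. Of 15 genes with a promoter in a list of mitotic kinesins, cyclins and a cyclin-dependent kinase, 11 had them. Of 27 DNA replication genes 2 did.

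With CPT-11, 15 of the 34 mitotic genes fell (44.1%), 1 rose and 18 did not pass the test (quasi-likelihood test of edgeR, p below 0.05 after Benjamini-Hochberg adjustment over all 14011 genes tested). A gene that did not pass the test is not thereby shown to be unchanged. Among all genes tested 2.52% were called lower and 2.98% higher, 5.50% in either direction. The count of 15 rested in part on single libraries: it was 5 without vehicle library 1, 6 without vehicle library 3 and 10 without vehicle library 4 or CPT-11 library 4, with 0.756%, 0.729%, 1.27% and 1.41% of all genes then called lower. The log2 fold change (CPT-11 against vehicle, below also log2 change) was negative for 31 members, against 48.7% of all genes, and its median was -0.66, against 0.01 for all genes. In 19 members every CPT-11 library lay below every vehicle library, as in 10.1% of all genes, and in 1 member every CPT-11 library lay above, as in 8.41%. At an unadjusted p below 0.05, 25 members were lower (background 11.2%) and 2 higher (background 13.4%). Decreases past the threshold and more than 2-fold were found in 7 members (background 1.10%). The summed level of the members was 1211 to 1554 CPM (counts scaled to the library size) in the vehicle libraries and 807 to 1047 CPM in the CPT-11 libraries. In bulk RNA, fewer dividing cells and less of these transcripts per dividing cell cannot be told apart.

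**Figure D1:**
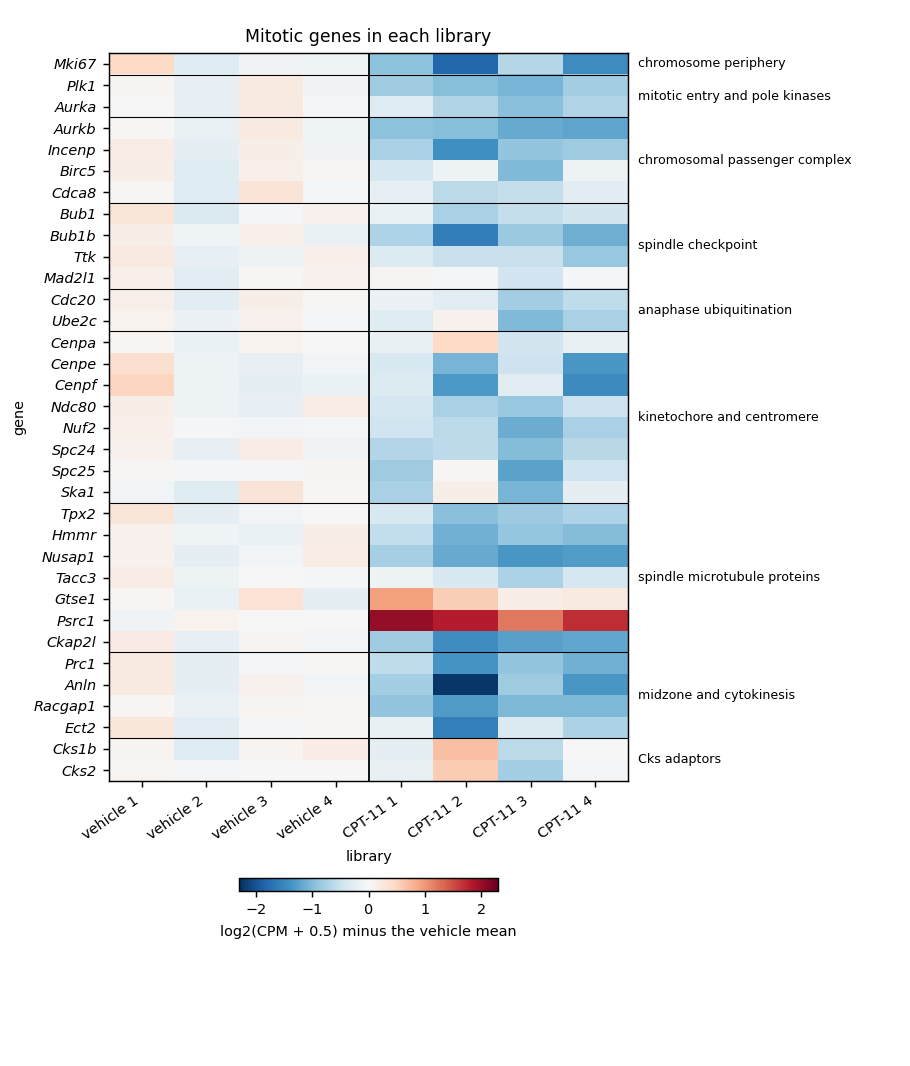
Level of each of the 34 genes (rows, grouped by role) in each of the 8 libraries (columns), as log2(CPM + 0.5) minus the mean of the vehicle libraries; blue is lower and red higher. Most rows are blue in all 4 CPT-11 libraries, with Psrc1 and Gtse1 red.

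The groups were also uneven within themselves. Relative to the vehicle mean, the median member stood at -0.38, -0.72, -0.84 and -0.72 (log2 difference) in CPT-11 libraries 1 to 4, while the median over all genes was between -0.03 and 0.01 in each. CPT-11 library 1 had the highest level of its group in 23 of 34 members, and library 3 had the lowest in 18. Among the vehicle libraries, library 2 was lowest in 25 members and library 1 highest in 17.

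Total counts were 20670728 to 23323653 per library, and 18979 to 20061 named genes had a count. CPT-11 library 2 stood apart, with a TMM scaling factor of 0.731 against 0.977 to 1.10 in the others. The crypt label was met by epithelial markers, whose 8 genes summed to 10632 to 12252 CPM with vehicle and 11537 to 15620.5 CPM with CPT-11, none past the test. Marker lists of other cell types gave the following values beside the mitotic genes. Goblet cell markers summed to 10538 to 14686 CPM with vehicle and 10631 to 36672 CPM with CPT-11. Of these 0 of 7 passed the test, with a list median of 0.47 (log2). Enteroendocrine markers summed to 340 to 393 CPM and 346 to 583 CPM, with 0 of 6 past the test. Tuft cell markers summed to 24.7 to 31.8 CPM and 19.7 to 23.5 CPM, with 0 of 4 tested past it and a median of -0.47. Crypt base stem cell markers fell in 4 of 8 (summed 1636 to 1954 CPM, then 511 to 811 CPM), with Lgr5 at 12.4 ± 0.801 CPM in the vehicle libraries and 2.98 ± 0.187 CPM in those given CPT-11 (log2 change of -2.06, adjusted p = 7.92e-05). Paneth markers summed to 40823 to 58429 CPM and 25410 to 47248 CPM, with 0 of 7 past the test. Enterocyte markers summed to 10589 to 17062 CPM and 19500.5 to 61740.1 CPM, and 1 of 10, Fabp2, rose, a call lost without any 1 of the vehicle libraries or CPT-11 library 1 (adjusted p 0.0574 to 0.120). B and plasma cell markers summed to only 1.44 to 5.89 CPM with vehicle and 7.45 to 16.1 CPM with CPT-11. Of 5 tested 4 rose, and 1 had a negative log2 change (-0.43) and did not pass the test. Of these markers, Cd79a averaged 0.833 ± 0.621 CPM in the vehicle libraries and 4.27 ± 1.93 CPM in those given CPT-11 (log2 change of 2.34, adjusted p = 0.0406). Cd79b averaged 1.38 ± 0.656 CPM in the vehicle libraries and 4.32 ± 1.04 CPM in those given CPT-11 (log2 change of 1.64, adjusted p = 0.0264). The calls of Cd79a and Cd79b were both lost without vehicle library 1, 2 or 4 or CPT-11 library 1 or 4 (adjusted p 0.0574 to 0.103). Both were also lost without CPT-11 libraries 2 and 4 together (0.105 and 0.0505). Macrophage and dendritic cell markers summed to 39.5 to 51.9 CPM and 46.7 to 66.4 CPM, and 1 of 7 tested, Cd14, rose, with a list median of 0.95 (log2). Fibroblast and endothelial markers summed to 8.94 to 42.9 CPM and 18.1 to 106 CPM, with 0 of 5 tested past the test and a median of 0.90. Cd14 is named after its value was seen. T cell markers summed to 134 to 415 CPM and 296 to 456 CPM, with 0 of 8 past the test, and Ptprc, carried by all leukocytes, did not pass it (log2 change of 0.13, adjusted p = 0.837). No listed marker was at 0 in all libraries. The part of these cell types in the mitotic result was not tested.

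Mki67 (ENSMUSG00000031004, chr7:135689784-135716361 on the minus strand) encodes the Ki-67 protein that coats mitotic chromosomes and is the usual marker of cycling cells. It measured 190.4, 114, 132 and 130.2 CPM in vehicle libraries 1 to 4 and 71.7, 39.3, 87.8 and 51.0 CPM in CPT-11 libraries 1 to 4. The groups did not overlap, and CPT-11 libraries 2 and 4 were lowest. The level fell 2.27-fold (log2 change of -1.18 with SE 0.257, adjusted p = 0.0296). The call was lost without vehicle library 1, 3 or 4 or without CPT-11 library 1 or 4, with adjusted p between 0.0610 and 0.0948.

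Both kinases of mitotic entry and the spindle poles fell. Plk1 (ENSMUSG00000030867, chr7:122159439-122169873 on the plus strand), the Polo kinase that acts from mitotic entry to cytokinesis, measured 62.7, 52.5, 69.5 and 57.0 CPM in vehicle libraries 1 to 4 and 33.8, 30.1, 28.3 and 34.1 CPM in CPT-11 libraries 1 to 4. All CPT-11 libraries lay within a narrow range, below every vehicle library (1.91-fold lower, log2 change of -0.94 with SE 0.129, adjusted p = 0.00449). Aurka, the Aurora kinase of the spindle pole, measured 41.4, 36.1, 47.7 and 40.2 CPM in vehicle libraries 1 to 4 and 33.4, 25.2, 20.8 and 25.4 CPM in CPT-11 libraries 1 to 4. It was 1.58-fold lower, with CPT-11 library 1 closest to the vehicle libraries (log2 change of -0.66 with SE 0.161, adjusted p = 0.0445). The Aurka call was lost without any 1 of the vehicle libraries or CPT-11 library 4, or without CPT-11 libraries 2 and 4 together (adjusted p 0.0677 to 0.143), while that of Plk1 held in all 19 alternative analyses.

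The chromosomal passenger complex, which corrects faulty attachments and later works at the midzone, had 2 of its 4 subunits lower. Its kinase Aurkb (ENSMUSG00000020897, chr11:69045647-69051664 on the plus strand) measured 40.9, 35.8, 46.3 and 37.4 CPM in vehicle libraries 1 to 4 and 20.5, 20.0, 17.6 and 17.0 CPM in CPT-11 libraries 1 to 4. These levels were 2.14-fold lower with no overlap (log2 change of -1.10 with SE 0.132, adjusted p = 0.00216). Incenp, the scaffold that activates Aurkb, measured 64.3, 49.0, 63.1 and 54.5 CPM in vehicle libraries 1 to 4 and 34.2, 21.2, 30.2 and 32.2 CPM in CPT-11 libraries 1 to 4. It fell 1.96-fold (log2 change of -0.97 with SE 0.167, adjusted p = 0.0123), a call lost without vehicle library 1 or 3 (adjusted p 0.0509 and 0.0511). The remaining subunits, Birc5 (survivin) and Cdca8 (borealin), which tether the complex to the centromere, did not pass the test. Birc5 measured 56.5, 41.7, 55.1 and 52.3 CPM in the vehicle libraries and 38.2, 47.3, 25.1 and 46.8 CPM in those given CPT-11, in library order, and its groups overlapped through CPT-11 libraries 2 and 4 (log2 change of -0.39, adjusted p = 0.260). Cdca8 measured 49.0, 38.9, 59.0 and 47.5 CPM in the vehicle libraries and 42.3, 31.2, 32.7 and 40.3 CPM in those given CPT-11 (log2 change of -0.41, adjusted p = 0.155).

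Ratios between partners were compared for 15 pairs of members within 5 complexes or gene pairs, by an exact two-sided permutation test over the 8 libraries, whose smallest possible p is 0.0286. The log2 ratio of Aurkb to Birc5 averaged -0.35 ± 0.14 with vehicle and -1.01 ± 0.41 with CPT-11, and that of Aurkb to Cdca8 -0.27 ± 0.11 and -0.94 ± 0.25 (SD, n = 4, exact permutation p = 0.0286 for each). Incenp to Cdca8, Aurka to Aurkb, and Bub1 to Bub1b also reached the smallest p. After Benjamini-Hochberg adjustment over the 15 pairs these 5 had an adjusted p of 0.0857, so none passed 0.05 by this exact permutation test. The smallest p arises only where every CPT-11 library lies on the same side of every vehicle library, as in these 5. Over 15 pairs the adjusted p could pass 0.05 only if most pairs reached that smallest p. The adjusted result therefore says little about any 1 ratio. With the length trend removed, the difference in Aurkb to Cdca8 was -0.57 (exact permutation p = 0.0857), against -0.67 before, and the other 4 kept the smallest p. Aurkb to Birc5 then differed by -0.48, against -0.66 before.

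Of the spindle checkpoint genes, Bub1b fell and Bub1, Ttk and Mad2l1 did not pass the test. Bub1b (BubR1), part of the complex that inhibits Cdc20, measured 57.7, 49.0, 56.7 and 46.8 CPM in vehicle libraries 1 to 4 and 31.9, 17.0, 28.8 and 23.7 CPM in CPT-11 libraries 1 to 4. It was 2.07-fold lower with no overlap (log2 change of -1.05 with SE 0.190, adjusted p = 0.0141), and the call was lost without vehicle library 1 or 3 (adjusted p 0.0588 and 0.0586). Its paralog Bub1, the kinase that recruits checkpoint proteins to the kinetochore, measured 20.0, 13.0, 15.9 and 17.7 CPM in the vehicle libraries and 14.7, 9.62, 11.1 and 12.1 CPM in those given CPT-11 in library order (log2 change of -0.48, adjusted p = 0.143). Ttk (Mps1), the kinase that starts checkpoint signalling, did not overlap between groups, with 9.52 to 12.7 CPM and 5.74 to 8.72 CPM (log2 change of -0.58, adjusted p = 0.0835, and 0.0287 by DESeq2). Mad2l1, the Mad2 protein that binds Cdc20, averaged 42.9 ± 4.82 CPM in the vehicle libraries and 40.0 ± 5.86 CPM in those given CPT-11 (SD, n = 4, log2 change of -0.10, adjusted p = 0.683).

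Neither member of the anaphase ubiquitination step passed the test. Cdc20, the activator of the anaphase-promoting complex, measured 103, 79.2, 105 and 96.9 CPM in the vehicle libraries and 87.0, 80.1, 54.5 and 63.3 CPM in those given CPT-11 in library order (log2 change of -0.43, adjusted p = 0.157). Ube2c, its ubiquitin-conjugating enzyme, measured 97.6, 84.7, 99.9 and 89.3 CPM in the vehicle libraries and 76.2, 99.5, 45.3 and 54.9 CPM in those given CPT-11 (log2 change of -0.43, adjusted p = 0.259). In Ube2c only CPT-11 library 2 reached the vehicle range, and without that library the log2 fold change was -0.65 (adjusted p = 0.0355). That analysis called 3.80% of all genes lower, against 2.52% with every library. Birc5, Ska1, Cenpa, Cks1b and Cks2, in which library 2 was also the highest of its group, did not pass in it (adjusted p 0.0926 to 0.372).

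In the kinetochore and centromere group 2 of 8 fell, both subunits of the NDC80 complex, the rod that grips microtubule ends. Nuf2 measured 22.1, 19.8, 19.5 and 20.0 CPM in vehicle libraries 1 to 4 and 14.6, 13.1, 8.91 and 12 CPM in CPT-11 libraries 1 to 4. It was 1.68-fold lower, and CPT-11 library 3 was lowest (log2 change of -0.75 with SE 0.164, adjusted p = 0.0302). Spc24 measured 37.5, 30.4, 39.3 and 32.8 CPM in vehicle libraries 1 to 4 and 21.8, 22.6, 17.2 and 22.1 CPM in CPT-11 libraries 1 to 4, 1.67-fold lower with 3 of the CPT-11 libraries nearly equal (log2 change of -0.74 with SE 0.141, adjusted p = 0.0171). The Nuf2 call was lost without any 1 of the vehicle libraries or CPT-11 library 4 (adjusted p 0.0693 to 0.104) and the Spc24 call without vehicle library 1 or 3 (0.0735 and 0.0709). The other subunits of the rod missed the threshold. Ndc80 was 10.6 ± 1.36 CPM in the vehicle libraries and 6.75 ± 1.09 CPM in those given CPT-11, without overlap (log2 change of -0.65, adjusted p = 0.0557). Spc25 was 18.5 to 20.1 CPM with vehicle, and -0.57 on the log2 scale with CPT-11 (adjusted p = 0.183), where library 2 stood at 19.5 CPM and the other 3 at 7.87 to 13.9 CPM. Without CPT-11 library 2 the Spc25 log2 fold change was -0.82 (adjusted p = 0.0197), in the analysis that called 3.80% of all genes lower. None of the 6 ratios between NDC80 subunits differed between groups past the test (exact permutation p from 0.314 to 1).

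The 2 giant kinetochore proteins were lower without passing the test. Cenpe, a kinesin that carries chromosomes to the spindle equator, measured 27.5, 19.5, 18.5 and 20.4 CPM in the vehicle libraries and 16.4, 9.87, 15.1 and 8.06 CPM in those given CPT-11 in library order (log2 change of -0.79, adjusted p = 0.0863, and 0.0264 by DESeq2). Cenpf, a fibrous outer kinetochore protein, measured 30.6, 19.8, 18.3 and 19.2 CPM in the vehicle libraries and 17.2, 8.33, 17.8 and 7.47 CPM in those given CPT-11 (log2 change of -0.79, adjusted p = 0.158). In both, CPT-11 libraries 2 and 4 were lowest and vehicle library 1 was highest. Ska1, which holds kinetochores on shortening microtubules, measured 8.37, 7.11, 10.9 and 8.91 CPM in the vehicle libraries and 4.99, 9.62, 3.89 and 7.37 CPM in those given CPT-11 and overlapped through CPT-11 libraries 2 and 4 (log2 change of -0.45, adjusted p = 0.328). Without these libraries, the highest CPT-11 libraries for Ska1 and Birc5, the log2 changes were -0.99 and -0.70 (adjusted p = 0.0159 and 0.0422). That analysis called 3.94% of all genes lower. Cenpa, the histone H3 variant that marks the centromere, measured 55.3, 48.0, 56.4 and 53.8 CPM in the vehicle libraries and 47.3, 73.3, 39.5 and 47.6 CPM in those given CPT-11, with library 2 of the CPT-11 group above all vehicle libraries and the other 3 below (log2 change of -0.04, adjusted p = 0.905).

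**Figure D2:**
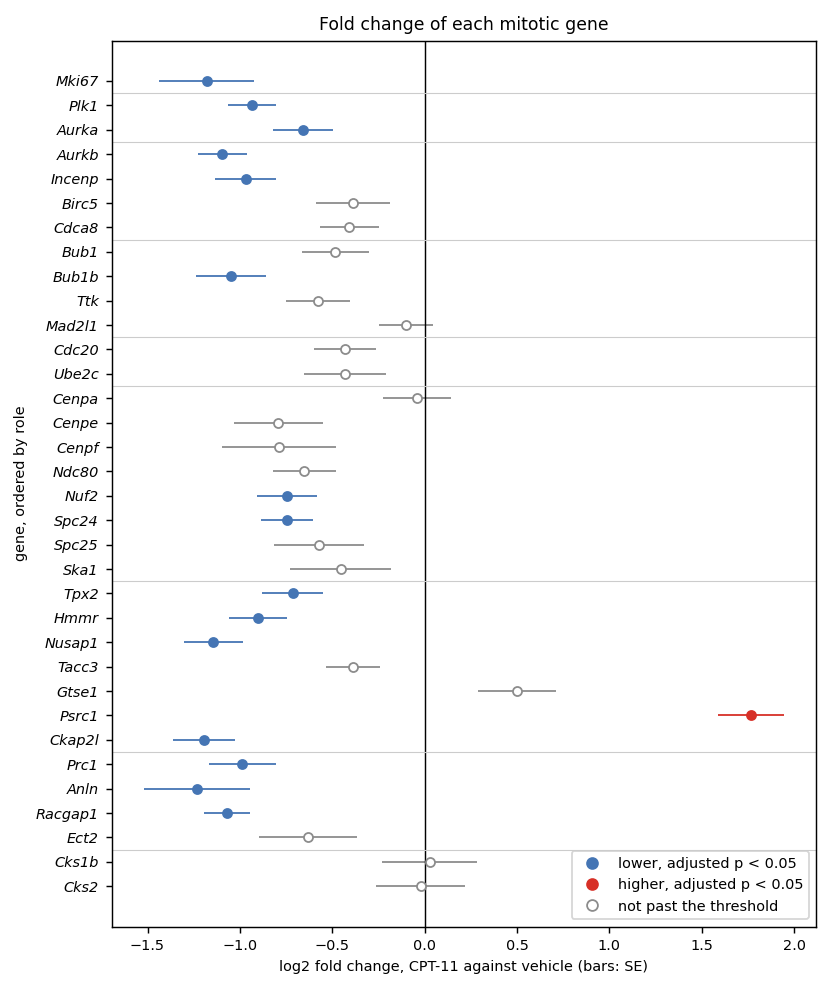
Log2 fold change of each gene, CPT-11 against vehicle, from the edgeR fit (points) with its standard error (bars), genes ordered by role; filled blue points were lower and the filled red point higher at an adjusted p below 0.05, and open points did not pass. The 15 filled blue points run from -0.66 (Aurka) to -1.23 (Anln), and Psrc1 stands alone at 1.77.

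The spindle microtubule proteins held members that moved in opposite directions: 4 of 7 fell and 1 rose. Nusap1 (ENSMUSG00000027306, chr2:119618298-119651244 on the plus strand), which bundles microtubules near chromosomes, measured 51.0, 41.3, 46.1 and 54.0 CPM in vehicle libraries 1 to 4 and 27.8, 21.3, 18.6 and 19.3 CPM in CPT-11 libraries 1 to 4. It was 2.21-fold lower (log2 change of -1.14 with SE 0.159, adjusted p = 0.00453). Ckap2l (ENSMUSG00000048327, chr2:129268210-129297212 on the minus strand), a spindle pole protein, measured 29.1, 22.2, 26.4 and 24.4 CPM in vehicle libraries 1 to 4 and 14.3, 9.13, 10.4 and 10.8 CPM in CPT-11 libraries 1 to 4 and was 2.29-fold lower (log2 change of -1.19 with SE 0.167, adjusted p = 0.00463). Neither had any overlap, and both calls held in all 19 alternative analyses. Hmmr, which helps to assemble spindle poles, averaged 25.9 ± 2.76 CPM in the vehicle libraries and 13.9 ± 2.46 CPM in those given CPT-11 (SD, n = 4, log2 change of -0.90 with SE 0.157, adjusted p = 0.0125). Tpx2, the activator of Aurora A on spindle microtubules, averaged 47.0 ± 7.00 CPM in the vehicle libraries and 28.7 ± 5.60 CPM in those given CPT-11 (log2 change of -0.71 with SE 0.166, adjusted p = 0.0374). The Hmmr call was lost without vehicle library 1 (adjusted p = 0.0513). That of Tpx2 was lost without any 1 of the vehicle libraries or CPT-11 library 4 (0.0530 to 0.123). The Tpx2 call was also lost without CPT-11 libraries 2 and 4 together (0.0597). Tacc3, a stabiliser of kinetochore fibres, averaged 43.5 ± 3.85 CPM in the vehicle libraries and 33.3 ± 5.74 CPM in those given CPT-11 and did not pass the test (log2 change of -0.39, adjusted p = 0.146).

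Psrc1 (ENSMUSG00000068744, chr3:108383839-108388231 on the plus strand) rose. Its product, also called DDA3, regulates microtubule ends in the spindle, and the gene is a known p53 target. It measured 7.80, 8.81, 8.18 and 8.23 CPM in vehicle libraries 1 to 4 and 34.8, 30.1, 19.9 and 27.8 CPM in CPT-11 libraries 1 to 4. The lowest CPT-11 library was more than 2-fold above the highest vehicle library, and the vehicle libraries were nearly equal. The increase was 3.41-fold (log2 change of 1.77 with SE 0.178, adjusted p = 0.00108) and was called in all 19 alternative analyses. Gtse1, another microtubule-binding protein that p53 induces and that in turn restrains p53, measured 16, 13.7, 19.5 and 13.1 CPM in the vehicle libraries and 30.2, 22.9, 17.1 and 17.8 CPM in those given CPT-11 in library order. Its CPT-11 libraries 1 and 2 lay above every vehicle library and the other 2 within the vehicle range (log2 change of 0.50, adjusted p = 0.183). Gtse1 was called higher in 1 of the 19 alternative analyses, limma-voom with sample quality weights (adjusted p = 0.0140). That analysis called 1535 of 14011 genes higher, against 417 in the main fit.

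The midzone and cytokinesis group fell in 3 of 4 members. Racgap1 (ENSMUSG00000023015, chr15:99620496-99651656 on the minus strand), the GTPase-activating subunit of centralspindlin, measured 72.8, 63.4, 73.7 and 71.7 CPM in vehicle libraries 1 to 4 and 37.5, 28.1, 34.2 and 34.2 CPM in CPT-11 libraries 1 to 4. It was 2.10-fold lower with little spread in either group (log2 change of -1.07 with SE 0.124, adjusted p = 0.00179), and was called in all 19 alternative analyses. Prc1, which crosslinks midzone microtubules, measured 46.9, 34.6, 39.6 and 41.7 CPM in vehicle libraries 1 to 4 and 26.8, 15.5, 21.2 and 18.5 CPM in CPT-11 libraries 1 to 4. Anln (anillin), the scaffold of the contractile ring, measured 30.7, 22.6, 28.4 and 25.3 CPM in vehicle libraries 1 to 4 and 15.2, 5.24, 14.8 and 10.2 CPM in CPT-11 libraries 1 to 4. Both lay below every vehicle library in every CPT-11 library, with library 2 the lowest. Prc1 was 1.98-fold lower (log2 change of -0.99 with SE 0.179, adjusted p = 0.0143), and Anln 2.35-fold lower (log2 change of -1.23 with SE 0.289, adjusted p = 0.0387), the largest decrease among the members in this fit. That rank did not hold in every analysis. Without CPT-11 library 2 Anln stood at -0.99 and Nusap1 at -1.13. With the length trend removed Anln stood at -1.12 and Aurkb at -1.19. The Prc1 call was lost without vehicle library 1 or 3 (adjusted p 0.0605 and 0.0525). The Anln call was lost without any 1 of the vehicle libraries or CPT-11 library 1 or 4 (0.0514 to 0.118). Ect2, the exchange factor that switches on RhoA at the furrow, measured 52.9, 36.9, 42.5 and 45.3 CPM in the vehicle libraries and 38.8, 14.6, 34.8 and 26.3 CPM in those given CPT-11 in library order and did not pass the test (log2 change of -0.63, adjusted p = 0.179).

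The Cks proteins, small adaptors that help cyclin-dependent kinases to bind their substrates, did not pass the test in either gene. Cks1b measured 18.6, 14.4, 18.4 and 19.9 CPM in the vehicle libraries and 15.3, 28.7, 11.3 and 17.5 CPM in those given CPT-11 and Cks2 39.9, 37.1, 38.5 and 38.3 CPM in the vehicle libraries and 33.9, 57.7, 22.2 and 37.8 CPM in those given CPT-11, both in library order. In each gene CPT-11 library 2 was above every vehicle library and CPT-11 library 3 below every one. The log2 fold changes were 0.03 and -0.02 (adjusted p = 0.957 and 0.962). Without CPT-11 library 2 they were -0.27 and -0.29 (adjusted p = 0.372 and 0.309).

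**Figure D3:**
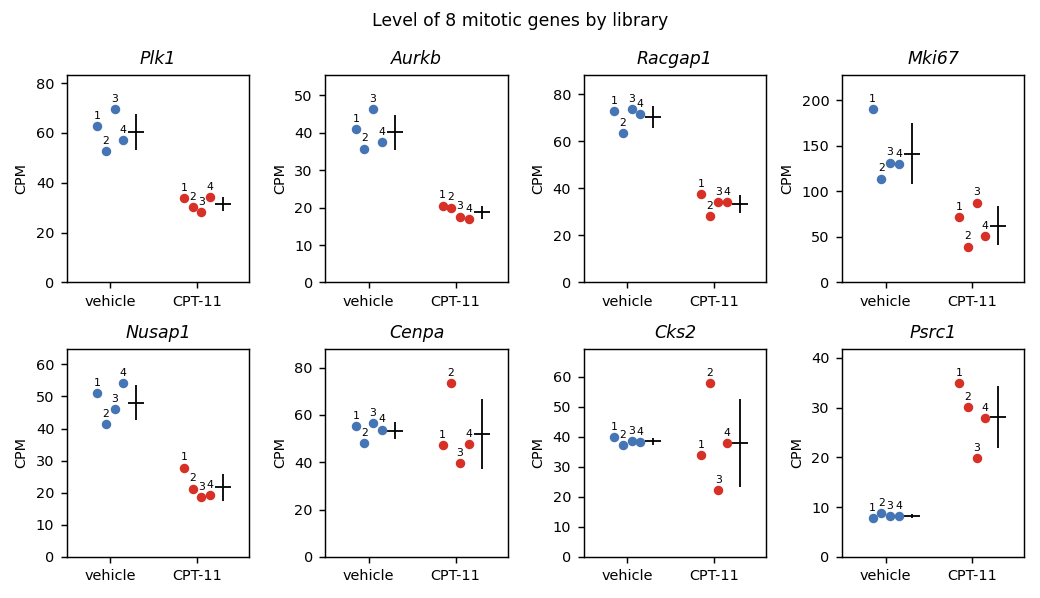
Level in CPM (vertical axis, from 0) of 8 mitotic genes in the vehicle (blue) and CPT-11 (red) libraries, numbered by replicate, with the mean and SD beside each group (n = 4). Plk1, Aurkb, Racgap1, Mki67 and Nusap1 do not overlap, Psrc1 is higher throughout, and in Cenpa and Cks2 the CPT-11 library numbered 2 is the highest.

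The log2 fold change varied with gene length as the authors' table gives it. Members other than Psrc1 and Gtse1 had a median log2 fold change of -0.39 below 1500 bases (1 of 7 fell), -0.66 from 1500 to 3000 bases (7 of 14) and -0.90 from 3000 bases up (7 of 11). All genes tested shifted the same way, with medians of 0.29, 0.05 and -0.13. CPT-11 library 2 differed from the other CPT-11 libraries along the same axis: its level was 0.71 higher (median log2 difference) in short members and -0.49 in long ones, against 0.60 and -0.32 for all genes. CPT-11 library 3 differed in the opposite direction, at -0.71 in short and 0.29 in long members. Over the 34 members, which share these libraries, Spearman's rho of length with the difference of library 2 from its group was -0.85, and with the log2 fold change -0.65.

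When each library's smooth trend of expression on length was removed as an offset, 20 members were called lower, the 15 above and Birc5, Ube2c, Ndc80, Spc25 and Cks2, with 4.54% of all genes called lower. The class medians were then -0.58, -0.75 and -0.80, with 4 of 7, 9 of 14 and 7 of 11 lower. The rho of log2 fold change with length was -0.28. Cdca8, Bub1, Ttk, Mad2l1, Cdc20, Cenpa, Cenpe, Cenpf, Ska1, Tacc3, Gtse1, Ect2 and Cks1b did not pass the test in that analysis either.

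**Figure D4:**
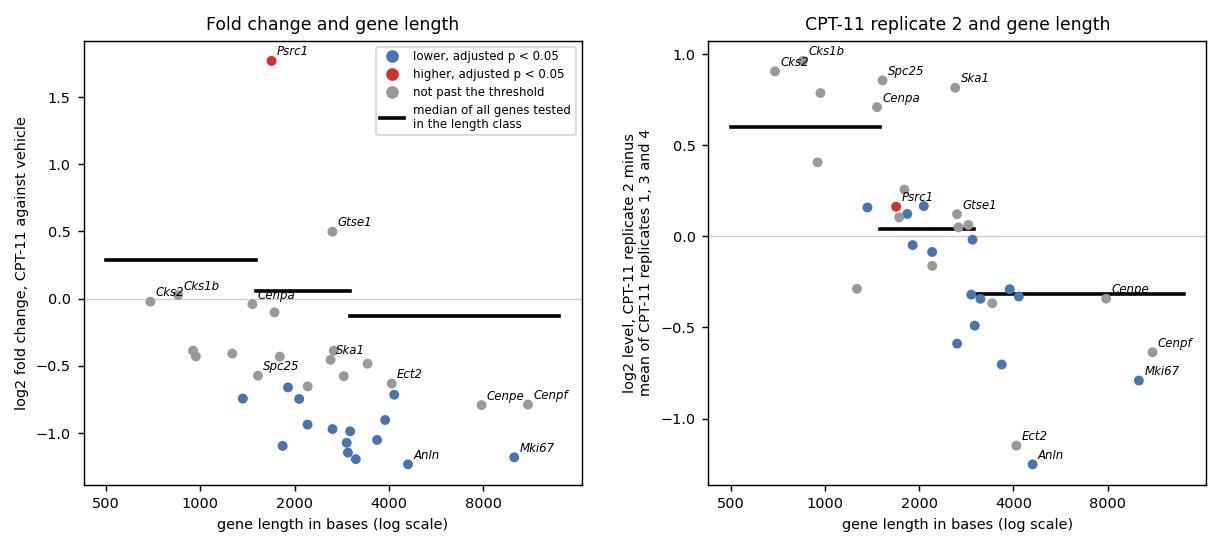
Gene length in bases (horizontal, log scale) against the log2 fold change (left) and against the log2 level of CPT-11 library 2 minus the mean of the other CPT-11 libraries (right); points are the 34 genes, coloured by their call, and black bars are medians of all genes tested in each length class. Short genes such as Cks2 and Cks1b sit high in the right panel and long ones such as Cenpf low.

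Per kilobase of gene length, the order of the members in the vehicle libraries ran from Ube2c at 96.0 ± 7.34 CPM per kb down to Cenpf at 1.98 ± 0.519 CPM per kb (SD, n = 4). Cks2 (55.6 ± 1.63), Birc5 (54.3 ± 7.04) and Cdc20 (53.5 ± 6.51 CPM per kb) followed Ube2c, and did not differ beyond their spread. With CPT-11, Ube2c was still highest at 71.4 ± 24.9 CPM per kb. Psrc1 went from 4.90 ± 0.247 to 16.7 ± 3.70 CPM per kb, and so from near Bub1 (4.86 ± 0.867) to above Aurka (13.7 ± 2.75 with CPT-11).

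Other genes of cell division, in lists chosen by function, gave 26 called lower and 0 higher of 134, with a median log2 fold change of -0.43. The list of mitotic kinesins and cyclins, which also holds a cyclin-dependent kinase, had the largest share, with 12 of 17 lower (median -0.81). Among them were Kif11, the motor that separates spindle poles (log2 change of -1.07, adjusted p = 0.00721), Kif2c, a microtubule depolymerase (log2 change of -1.10, adjusted p = 0.00658), and Ccnf (cyclin F, log2 change of -1.05, adjusted p = 0.00453). In the other kinetochore and centromere list 5 of 32 fell. They included Hjurp, the chaperone that loads Cenpa onto the centromere, which averaged 155 ± 17.0 CPM in the vehicle libraries and 72.3 ± 21.7 CPM in those given CPT-11 (SD, n = 4, log2 change of -1.10, adjusted p = 0.0184), beside Cenpa itself at 53.4 ± 3.75 CPM in the vehicle libraries and 51.9 ± 14.7 CPM in those given CPT-11. Of the other spindle and centrosome genes 3 of 23 fell, with Fam83d, which positions the spindle, at 16.8 ± 2.02 CPM in the vehicle libraries and 5.93 ± 1.54 CPM in those given CPT-11 (log2 change of -1.49, adjusted p = 0.00453).

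Separase and securin, the protease that cuts cohesin and its inhibitor, had log2 changes of opposite sign. Espl1 (separase) measured 26.5, 19.1, 28.7 and 20.6 CPM in vehicle libraries 1 to 4 and 9.81, 6.78, 11.2 and 8.85 CPM in CPT-11 libraries 1 to 4 (log2 change of -1.37 with SE 0.197, adjusted p = 0.00572). Pttg1 (securin) measured 10.1, 10.5, 10.9 and 11.3 CPM in vehicle libraries 1 to 4 and 15.9, 28.2, 13.5 and 16.8 CPM in CPT-11 libraries 1 to 4. Every CPT-11 library was below the vehicle range for Espl1 and above it for Pttg1, but Pttg1 did not pass the test (log2 change of 0.80, adjusted p = 0.0655). The genes differ in length, with 6658 bases for Espl1 and 696 for Pttg1. With the length trend removed, the log2 changes of Espl1 and Pttg1 were -1.15 and 0.43. Without CPT-11 library 2, the highest for Pttg1, they were -1.24 and 0.54. Pttg1 was called higher in 5 of the 19 alternative analyses. In the condensin and cohesin list 2 of 20 fell in all.

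Among the regulators of G2 and M genes 1 of 14 fell: Foxm1, the forkhead factor that binds with MuvB at CHR promoters. It measured 31.7, 22.7, 37.6 and 25.5 CPM in vehicle libraries 1 to 4 and 13.0, 13.0, 16.3 and 12.6 CPM in CPT-11 libraries 1 to 4, with no overlap (log2 change of -1.10 with SE 0.181, adjusted p = 0.00972). Mybl2 (B-Myb), the other activator of those promoters, averaged 19.2 ± 3.48 CPM in the vehicle libraries and 15.7 ± 2.04 CPM in those given CPT-11 and did not pass the test (log2 change of -0.29, adjusted p = 0.293). In the anaphase-promoting complex list 1 of 17 fell (median -0.01), and in the other cytokinesis list 2 of 11 (median -0.01), one of them Cit, the citron kinase of the midbody (log2 change of -1.38, adjusted p = 0.0170), whose call was lost without vehicle library 1 or 3 (adjusted p 0.0645 and 0.0608). The Hjurp call was lost without vehicle library 1, 2 or 3 or CPT-11 library 4 (0.0529 to 0.0714).

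DNA replication genes, which act in S phase, gave 1 of 35 lower and 0 higher, a share of 2.86% against 2.52% of all genes. Their median log2 fold change was -0.19, and it was negative in 31 of 35, against 48.7% of all genes. At an unadjusted p below 0.05 in the edgeR test 8 were lower (background 11.2%). In 8 every CPT-11 library lay below every vehicle library (background 10.1%). Cdc45 and Pola1 narrowly missed the threshold (adjusted p = 0.0525 and 0.0557). The gene that fell was Pole, the leading-strand polymerase (21.1 ± 3.99 CPM in the vehicle libraries and 12.2 ± 2.41 CPM in those given CPT-11, log2 change of -0.79, adjusted p = 0.0412). Its call was lost in 7 alternative analyses that left out libraries. The difference between the replication and mitotic lists was not tested.

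**Figure D5:**
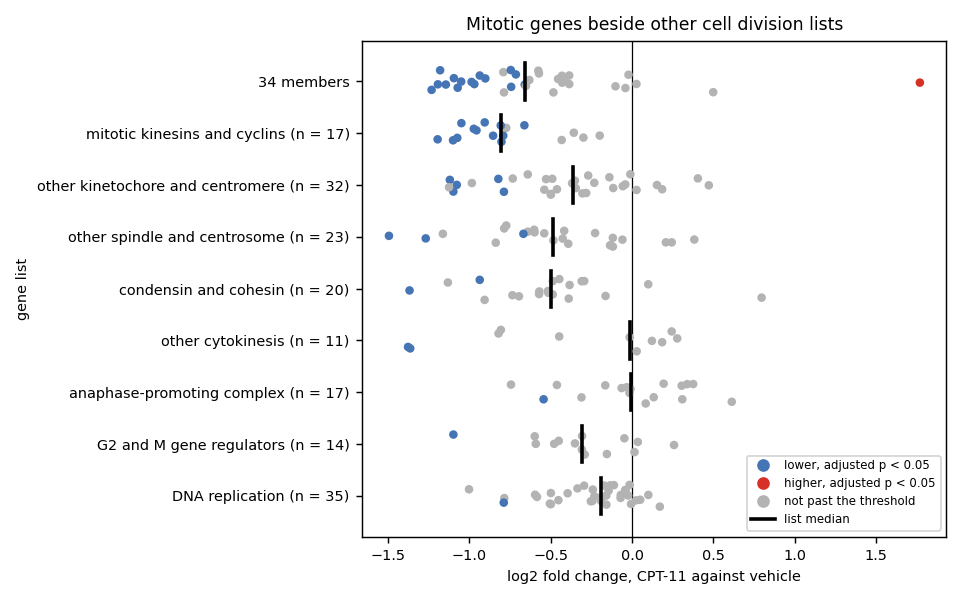
Log2 fold change, CPT-11 against vehicle, of each gene (points) in the 34 members and in 8 other cell division lists, with the list median as a black bar; blue points were lower and red higher at an adjusted p below 0.05. The medians of the members (-0.66) and of the kinesins and cyclins (-0.81) lie farther left than that of DNA replication (-0.19).

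Exons of 6 members overlap a tested gene on the opposite strand: Plk1 with Gm44985, Cdca8 with 9930104L06Rik, Cdc20 with Elovl1, Nusap1 with Oip5, Tacc3 with Tmem129 and Prc1 with Rccd1. Whether the counting used strand is not given in the sources used here, so reads in the exon stretches that a pair shares cannot be told apart. How long those stretches are was not measured. The partner most abundant beside its member was Elovl1, a fatty acid elongase, at 66.5 and 107.8 CPM on average with vehicle and CPT-11, beside Cdc20 at 96.0 ± 11.7 CPM in the vehicle libraries and 71.2 ± 14.9 CPM in those given CPT-11. In 15 members at least 1 library had an estimated count that was not whole. Nuf2, Prc1 and Cks2 had such counts in all 8 libraries.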

How the data were processed

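Bowtie2 2.4.1 and the build GRCm38.p6 are named in the submitters' processing notes. The authors deposited estimated counts per gene, not scaled to depth. The counting tool is not given in the sources used here. Of 56030 rows, 543 without a gene name (0.325% to 0.662% of counts) were left out. Estimated counts were rounded and tested in R 4.3.3 with edgeR 4.0.16 (TMM scaling, default expression filter, robust quasi-likelihood F test, two-sided), with no covariates, with Benjamini-Hochberg adjustment over 14011 genes and a threshold of 0.05. CPM used the TMM-scaled library size, and log2 levels a pseudocount of 0.5 CPM. Alternatives were RLE and upper-quartile scaling, other filters, DESeq2 1.42.0, limma 3.58.1 (voom, with and without quality weights), a replicate block, removal of the length trend, and libraries left out. The fit was tested on simulated data. Gene coordinates came from GENCODE M21 on GRCm38, promoter sequences from RefSeq. All members may be named, and of each other cell division list at most 3 genes, those with the smallest p, besides Foxm1, Mybl2, Espl1 and Pttg1. For the marker lists the rule was the highest mean CPM and not p, besides Epcam, Lgr5 and Ptprc, with Cd14 an exception. Members, lists, ratio pairs and length classes were chosen with earlier results of these data known.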

Additional observations from a re-analysis of the deposited data

Results flagged for a closer look

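Each member's level was checked in both groups for a library far from the other 3, and 2 of 68 groups had one, where chance gives about 1 in 20. Cenpf, the outer kinetochore protein, stood at 30.6 CPM in vehicle library 1, while the other vehicle libraries were between 18.3 and 19.8 CPM. Spc24, a subunit of the NDC80 complex, stood at 17.2 CPM in CPT-11 library 3, while the other CPT-11 libraries were between 21.8 and 22.6 CPM.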

How the results depend on the processing

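Members called lower numbered 15 under RLE and upper-quartile scaling, both filters, limma-voom and with unnamed rows included, 18 under DESeq2, 19 under limma-voom with quality weights, and 20 with the length trend removed, where 5.99%, 11.7% and 4.54% of all genes were lower, against 2.52%. Leaving out 1 library gave 5 to 17, and the low counts of 5, 6, 10 and 10 came without vehicle replicates 1, 3 and 4 and CPT-11 replicate 4, with 240, 236, 416 and 477 genes called of all tested (770 with every library). The 17 came without CPT-11 replicate 2 (3.80% of all genes lower). In the fits without 1 library, 0.729% to 5.32% of all genes were called lower. Without CPT-11 replicates 2 and 4 together 16 were lower, 13 of them among the 15, with 3.94% of all genes lower. Members called higher were 1 throughout, also with 1 library left out (1 to 1), except for 2 with quality weights, where the median log2 fold change was -0.49. That median was -0.78 to -0.59 with 1 library left out. Of the 134 other mitotic genes, 26 of them lower in the report, 52 were lower under DESeq2, 50 with quality weights, 43 with the length trend removed (the same shares of all genes) and 8 to 36 with 1 library left out. The cause of these shifts was not tested. Plk1, Aurkb, Nusap1, Psrc1, Ckap2l and Racgap1 were called in all 19 alternatives, 10 called members lost the call in at least 1, and 9 gained one.

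Signs reversed in 4 genes, none of them called with every library and the settings of the report. With 1 library left out Cks1b ran from -0.27 to 0.20, Cks2 from -0.29 to 0.16, Cenpa from -0.24 to 0.064 and Ptprc from -0.11 to 0.55. Cks1b had a log2 fold change of -0.0063 without a filter, -0.069 under limma-voom, -0.21 with quality weights, -0.34 with the length trend removed, -0.074 without vehicle replicate 2, -0.27 without CPT-11 replicate 2 and -0.42 without CPT-11 replicates 2 and 4. Cks2 reached 0.0016, 0.026 and 0.16 without vehicle replicate 1, CPT-11 replicate 1 and CPT-11 replicate 3, Cenpa 0.00021 and 0.064 without CPT-11 replicates 1 and 3, and Ptprc -0.11 without vehicle replicate 2.

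The correlations of same-numbered deviations were 0.31, 0.17, -0.16 and 0.12, and the labels name nothing that the numbers share, so the libraries were not treated as paired. With the replicate block 14 members were lower and 1 higher, and 27 other mitotic genes were lower, with 2.06% of all genes called lower. The median of the members was then -0.69, Aurka lost its call, and Cks1b stood at -0.049. Vehicle libraries 1, 2 and 4 correlated best with the CPT-11 library of their own number, as a hint from the data, and library 3 did not.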
